A study of Homo sapiens with 6 samples.

Results

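The proteasome is the protease of the cytosol and nucleus that degrades proteins tagged with ubiquitin, and its subunits, activators and assembly factors carry gene symbols that begin with PSM. Transcripts of 48 such genes, of 20442 in the deposited table, were compared between si-KNSTRN and si-NC cells. Members were every gene whose symbol is PSM, a letter from A to G and a number, a rule that uses no measured value. The members were nevertheless chosen with earlier results of these data known. They comprised 8 alpha subunits, 7 standard beta subunits, 4 beta subunits of immune and thymic proteasomes, 9 base and 8 lid subunits of the 19S particle, 3 assembly factors of the 19S particle, 5 activators and regulators and 4 assembly factors of the 20S core. The cells were T24, a cultured line derived from a human bladder carcinoma, and the title of the series names autophagy and bladder cancer progression after KNSTRN knockdown as its subject. In the si-KNSTRN group, cells attached for 24 h and then received for 24 h an siRNA (a small interfering RNA) against KNSTRN, which encodes a protein of the kinetochore and spindle. The si-NC group received si-NC, the control, on the same schedule, and each group had 3 libraries. The knockdown is transient, only 1 kind of knockdown is labelled among these samples, and the sources used here do not give the siRNA sequences.

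The core of the proteasome, the 20S particle, is a barrel of stacked rings: outer rings of alpha subunits gate the entrance, and inner rings of beta subunits hold the catalytic sites. The 19S particle caps the barrel; it binds ubiquitin chains, its lid removes them, and the ATPases of its base unfold the substrate and feed it into the core. Interferon gamma induces alternative catalytic beta subunits, which form the immunoproteasome and change the peptides offered on class I molecules. The transcription factor NFE2L1 (NRF1) raises transcription of the subunit genes when proteasome activity falls. Bladder epithelium, like other tissues, expresses the standard subunits throughout.

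Libraries held 16386799 to 20596074 counted reads. Levels are given as CPM, the read count scaled to a common depth with the trimmed mean of M-values (TMM). A gene without a read in a library could still be present at up to 3 reads, or 0.146 to 0.183 CPM, by counting error alone. The submitters describe the libraries as biological replicates, and p-values measure the spread between them. The targeted gene KNSTRN was covered by 269, 245 and 226 reads with si-KNSTRN, against 777, 663 and 762 reads with si-NC. It fell by 1.62 on the log2 scale (SE 0.07, adjusted p = 1.7e-11 by the quasi-likelihood test of edgeR, with Benjamini-Hochberg adjustment over 12650 genes). This test gave all adjusted p-values in the report, and a gene is said to have risen or fallen where its adjusted p was under 0.05. The epithelial keratin genes KRT7, KRT8 and KRT18 had 13560 to 23265 reads in each library, whereas KRT5, CDH1 and UPK3A had none and GATA3 had 19 to 37 reads. Library 3 of si-KNSTRN differed more from the other two of its group (chi-square per degree of freedom 10.3 and 6.98) than any other pair of one group did (2.16 to 4.35).

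More proteasome genes rose than fell after si-KNSTRN. Those that fell were the 3 immunoproteasome subunits PSMB8, PSMB9 and PSMB10, the activator subunit PSME1 and the assembly factors PSMD5 and PSMG4. Of 48 genes, 46 passed the filter on low counts; 24 of them rose, 6 fell and 16 did not pass the test. Among all 12650 genes tested, 31.2% rose and 31.3% fell, so that 62.5% passed the test in either direction. Of the 46 proteasome genes, 52.2% rose and 13.0% fell. The median log2 fold change was 0.14 over the 46 genes and -0.01 over all genes tested. For 29 proteasome genes every si-KNSTRN library lay above every si-NC library, and for 7 every one lay below, as did 33.4% and 33.9% of all genes tested. Most changes were small, as in the whole table. The median absolute log2 fold change was 0.23 over the 46 genes and 0.28 over all genes tested. With a minimum of 0.5 on the log2 scale, 3 proteasome genes rose (PSME3, PSMD9 and PSME4) and 1 fell (PSME1). The share of all genes tested at that minimum was not counted. PSMA8, an alpha subunit of the testis, and PSMB11, the beta subunit of the thymus, had no read in any library. Summed over the 46 genes, transcripts came to 8345, 8249.8 and 8318 CPM in si-KNSTRN libraries 1 to 3, against 7337, 7418 and 7319 CPM in si-NC libraries 1 to 3. Every si-KNSTRN sum lay above every si-NC sum. As in any bulk sample, fewer cells that express a gene and less RNA per cell cannot be told apart.

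**Figure D1:**
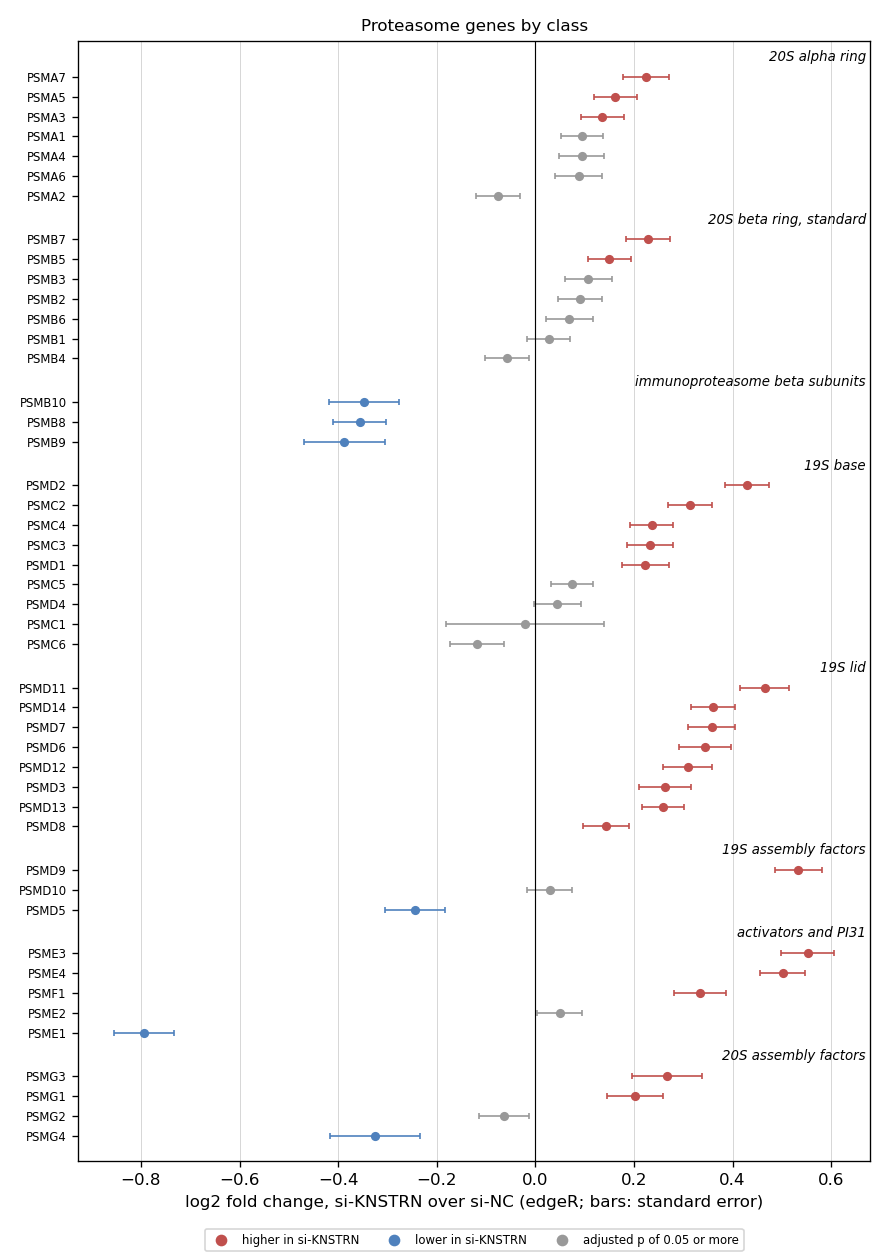
Log2 fold change of si-KNSTRN over si-NC cells (x axis) for the 46 proteasome genes tested (y axis), grouped by class, with standard errors from edgeR (3 libraries per group). The 8 lid genes of the 19S particle all lie to the right of 0, the 3 immunoproteasome genes lie to the left, and PSME1 lies farthest left at -0.79.

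Levels between genes were compared per kilobase of 1 GENCODE transcript per gene. PSMA7, an alpha subunit, was the most abundant at 494 CPM per kb in si-KNSTRN cells and 422 CPM per kb in si-NC cells. PSMD2, a scaffold subunit of the 19S base that binds ubiquitin-like domains, had 356 CPM per kb in si-KNSTRN cells and 265 CPM per kb in si-NC cells. The 14 standard subunits of the 20S core, which are present in equal number in the particle, ranged per kb of transcript from 36.9 to 494 CPM in si-KNSTRN cells and from 34.7 to 422 CPM in si-NC cells. PSMB2 was the lowest of them and PSMA7 the highest in each group. The chosen transcripts of PSMA4, PSMA5 and PSMB2 are long because of their 3' untranslated region (UTR), which lowers their value per kb. At the other end, the 19S assembly factor gene PSMD5 had 12.6 CPM per kb in si-KNSTRN cells and 14.9 CPM per kb in si-NC cells, and the activator gene PSME4 had 16.7 CPM per kb in si-KNSTRN cells and 11.8 CPM per kb in si-NC cells.

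The standard 20S core changed little. Of its 14 genes, 5 rose (35.7%, against 31.2% of all genes tested), none fell (against 31.3%) and 9 did not pass the test, with a median log2 fold change of 0.09. In the alpha ring, PSMA7 had 499.5, 474 and 502 CPM in si-KNSTRN libraries 1 to 3, against 423, 432 and 407 CPM in si-NC libraries 1 to 3 (log2 fold change 0.22, SE 0.05, adjusted p = 4.6e-04). PSMA5 had 191, 191 and 194 CPM with si-KNSTRN, against 175, 174 and 166 CPM with si-NC (log2 fold change 0.16, SE 0.04, adjusted p = 0.0039). The si-KNSTRN libraries lay above the si-NC libraries for both genes, without overlap. PSMA3, whose subunit has a tail at the gate of the barrel, had 131, 128 and 131 CPM with si-KNSTRN, against 115, 120.5 and 119.8 CPM with si-NC. Its rise of 0.14 on the log2 scale (SE 0.04, adjusted p = 0.013) was lost with upper-quartile scaling (adjusted p = 0.074), and it was also lost when si-NC library 1 was left out (adjusted p = 0.065). PSMA1 did not pass the test, with 209, 203 and 201 CPM with si-KNSTRN, against 191, 189.9 and 194 CPM with si-NC (adjusted p = 0.063). The other alpha subunits had log2 fold changes of 0.09 (PSMA4), 0.09 (PSMA6) and -0.08 (PSMA2). Parts of the transcripts of PSMA6 (85.6% of 50-base windows), PSMA2 (51.0%) and PSMA1 (48.4%) also occur in another annotated gene, so that their counts are uncertain.

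Among the standard beta subunits, 3 carry the catalytic sites: PSMB5 (chymotrypsin-like), PSMB6 (caspase-like) and PSMB7 (trypsin-like). PSMB7 had 263, 249.9 and 265 CPM in si-KNSTRN libraries 1 to 3, against 222, 226 and 217 CPM in si-NC libraries 1 to 3 (log2 fold change 0.23, SE 0.04, adjusted p = 3.0e-04). PSMB5 had 171, 176 and 178 CPM with si-KNSTRN, against 155, 163 and 156 CPM with si-NC (log2 fold change 0.15, SE 0.04, adjusted p = 0.0072). Both rose without overlap between the groups. PSMB6 had 134, 139 and 136 CPM with si-KNSTRN, against 129, 137 and 124 CPM with si-NC, and these ranges overlapped (adjusted p = 0.22). The non-catalytic subunit genes PSMB3 and PSMB2 did not pass the test, although their groups did not overlap. PSMB3 had 144, 150.3 and 145 CPM with si-KNSTRN, against 135, 143 and 130.00 CPM with si-NC (adjusted p = 0.057). PSMB2 had 100.1, 97.6 and 101 CPM with si-KNSTRN, against 92.8, 95.9 and 92.2 CPM with si-NC (adjusted p = 0.09). PSMB1 and PSMB4 had log2 fold changes of 0.03 and -0.06 (adjusted p = 0.61 and 0.27). The count in the 20S core depended on scaling. With library size alone 10 of the 14 genes rose, while 4339 of all 12650 genes tested rose and 3577 fell. With upper-quartile factors 4 of the 14 rose and 1, PSMA2, fell, while 3489 of all genes tested rose and 4450 fell. In the reported fit 3946 of all genes tested rose and 3959 fell.

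The 3 catalytic subunit genes of the immunoproteasome all fell, where 31.3% of all genes tested fell. PSMB8, PSMB9 and PSMB10 take the places of PSMB5, PSMB6 and PSMB7 in newly built cores. PSMB8 (chromosome 6, 32840717 to 32844679, GRCh38) had 46.1, 43.3 and 44.7 CPM in si-KNSTRN libraries 1 to 3, against 59.7, 55.8 and 56.2 CPM in si-NC libraries 1 to 3 (log2 fold change -0.36, SE 0.05, adjusted p = 2.3e-05). PSMB9 (chromosome 6, 32854192 to 32859851) had 23.8, 24.6 and 20.2 CPM with si-KNSTRN, against 30.2, 32.3 and 27.3 CPM with si-NC (log2 fold change -0.39, SE 0.08, adjusted p = 6.6e-04). For each, the highest si-KNSTRN library lay below the lowest si-NC library. PSMB10 (chromosome 16, 67934506 to 67936850) had 34.5, 33.4 and 30.7 CPM with si-KNSTRN, against 41.8, 45.4 and 38.5 CPM with si-NC (log2 fold change -0.35, SE 0.07, adjusted p = 4.4e-04), again without overlap. About 38.9% of its transcript windows also occur in another annotated gene. The fall of these 3 genes held in every scaling, test, filter and left-out library tried, although each change was smaller than 0.5 on the log2 scale.

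Set against the subunit that each replaces, the immunoproteasome genes were lower in every si-KNSTRN library. Per kb of transcript, the ratio of PSMB8 to PSMB5 was 0.311, 0.282 and 0.289 in si-KNSTRN libraries 1 to 3, against 0.444, 0.395 and 0.414 in si-NC libraries 1 to 3. The ratio of PSMB9 to PSMB6 was 0.194, 0.193 and 0.162 in si-KNSTRN libraries 1 to 3, against 0.256, 0.258 and 0.24 in si-NC libraries 1 to 3, and that of PSMB10 to PSMB7 was 0.105, 0.108 and 0.0932 in si-KNSTRN libraries 1 to 3, against 0.152, 0.162 and 0.143 in si-NC libraries 1 to 3. The standard subunit was the more abundant transcript of each pair in all 6 libraries. The log2 ratios differed between groups by -0.51, -0.46 and -0.57. An exact two-sided permutation test over the 6 libraries gave p = 0.1 for each, the smallest that 3 libraries against 3 allow. Immune cells express these subunits strongly, and the immune marker PTPRC had 0 to 2 reads in each library and CD3E none. The 5 immune markers together had 44.5 to 46.9 CPM in si-KNSTRN libraries and 29.7 to 35.3 CPM in si-NC libraries, nearly all of it CD68, and their part in the result was not tested.

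**Figure D2:**
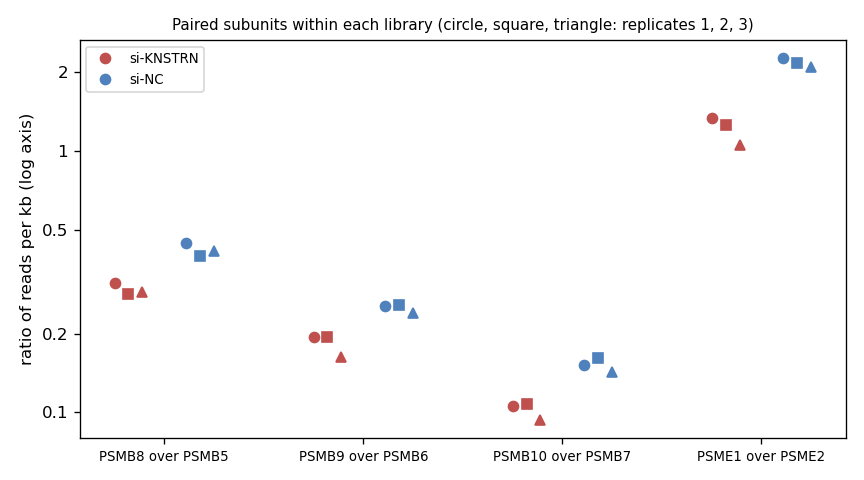
Ratio of reads per kb (y axis, log scale) of PSMB8 to PSMB5, PSMB9 to PSMB6, PSMB10 to PSMB7 and PSME1 to PSME2 (x axis) within each library, si-KNSTRN left and si-NC right. In all 4 ratios the 3 si-KNSTRN libraries lie below the 3 si-NC libraries, as in PSME1 to PSME2 with 1.06 to 1.33 in si-KNSTRN libraries against 2.09 to 2.27 in si-NC libraries.

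Of the 17 base and lid genes of the 19S particle 13 rose (76.5%, against 31.2% of all genes tested) and none fell (against 31.3%). All 8 lid genes rose, with log2 fold changes of 0.14 to 0.47 and a median of 0.33, and 5 of the 9 base genes rose. PSMD11, a lid scaffold subunit linked to proteasome assembly in stem cells, had 141, 141 and 152 CPM in si-KNSTRN libraries 1 to 3, against 101, 104 and 109 CPM in si-NC libraries 1 to 3 (log2 fold change 0.47, SE 0.05, adjusted p = 4.8e-07). PSMD14, the deubiquitinase that cuts ubiquitin chains from the substrate, had 194, 187 and 194 CPM with si-KNSTRN, against 148, 145 and 154 CPM with si-NC (log2 fold change 0.36, SE 0.04, adjusted p = 2.6e-06). Its partner in the catalytic dimer, PSMD7, had 177, 181 and 188 CPM with si-KNSTRN, against 142, 135 and 149 CPM with si-NC (log2 fold change 0.36, SE 0.05, adjusted p = 6.2e-06). The groups did not overlap for any of these genes. PSMD6, a further lid scaffold subunit, had 142, 127 and 128 CPM with si-KNSTRN, against 105, 100.02 and 108 CPM with si-NC (log2 fold change 0.34, SE 0.05, adjusted p = 2.6e-05). PSMD12, PSMD3 and PSMD13 also rose, with log2 fold changes of 0.31, 0.26 and 0.26. The rise of PSMD8 (0.14, SE 0.05, adjusted p = 0.013) was lost with upper-quartile scaling (adjusted p = 0.069). It was also lost when si-KNSTRN library 2 or si-NC library 1 was left out (adjusted p = 0.071 and 0.054).

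In the base, PSMD2 (chromosome 3, 184299241 to 184309050) had 1213, 1223 and 1249.6 CPM in si-KNSTRN libraries 1 to 3, against 919, 925 and 895 CPM in si-NC libraries 1 to 3 (log2 fold change 0.43, SE 0.04, adjusted p = 4.1e-07). Its si-KNSTRN and si-NC means of 1229 ± 18.8 and 913 ± 15.8 CPM (SD, n = 3 each) differed by more than the spread of either group. The ATPase gene PSMC2 had 168, 168 and 171 CPM with si-KNSTRN, against 133, 134 and 142 CPM with si-NC (log2 fold change 0.31, SE 0.04, adjusted p = 1.3e-05), and it overlaps the gene PMPCB. PSMC4, also an ATPase of the ring, had 115, 113 and 115 CPM with si-KNSTRN, against 97.7, 99.5 and 94.7 CPM with si-NC (log2 fold change 0.24, SE 0.04, adjusted p = 2.1e-04). PSMC3 had 325, 326 and 354 CPM with si-KNSTRN, against 286, 290.5 and 279 CPM with si-NC (log2 fold change 0.23, SE 0.05, adjusted p = 3.9e-04). All of these rose without overlap between the groups. The other large scaffold gene of the base, PSMD1, rose by 0.22 on the log2 scale, and the ubiquitin receptor gene PSMD4 did not pass the test (0.04, adjusted p = 0.43). The ATPase genes PSMC5 and PSMC6 did not pass it either, at 0.08 and -0.12 (adjusted p = 0.14 and 0.068). PSMC6 was called lower without si-KNSTRN library 1 (-0.18, adjusted p = 0.0073) and with upper-quartile factors (-0.16, adjusted p = 0.020).

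One ATPase gene depended on a single library. PSMC1 was covered by 4799, 4155 and 2225 reads with si-KNSTRN, against 3924, 3210 and 3803 reads with si-NC, which came to 243, 230.2 and 119.8 CPM with si-KNSTRN, against 193, 199.7 and 209 CPM with si-NC. Library 3 of si-KNSTRN was far below the other two, and the gene did not pass the test with all libraries (-0.02, SE 0.16, adjusted p = 0.91). Without that library its log2 fold change was 0.24 (SE 0.05) with an adjusted p = 1.7e-04, within the range of the other ATPase genes that rose. PSMC1 overlaps the gene NRDE2, and part of its transcript also occurs in the pseudogene PSMC1P1. Over the 17 base and lid genes the summed level was 4265, 4242 and 4259 CPM in si-KNSTRN libraries 1 to 3, against 3514, 3554 and 3539.6 CPM in si-NC libraries 1 to 3. PSMD2 was the most abundant of them. Leaving PSMD2 out, a choice made after its level was seen, the sums were 3051, 3019 and 3009 CPM in si-KNSTRN libraries 1 to 3, against 2595, 2629 and 2644 CPM in si-NC libraries 1 to 3. Summed 20S core transcripts came to 2887, 2819.9 and 2860.3 CPM in si-KNSTRN libraries 1 to 3, against 2646, 2694 and 2621 CPM in si-NC libraries 1 to 3. In every case the lowest si-KNSTRN sum lay above the highest si-NC sum.

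**Figure D3:**
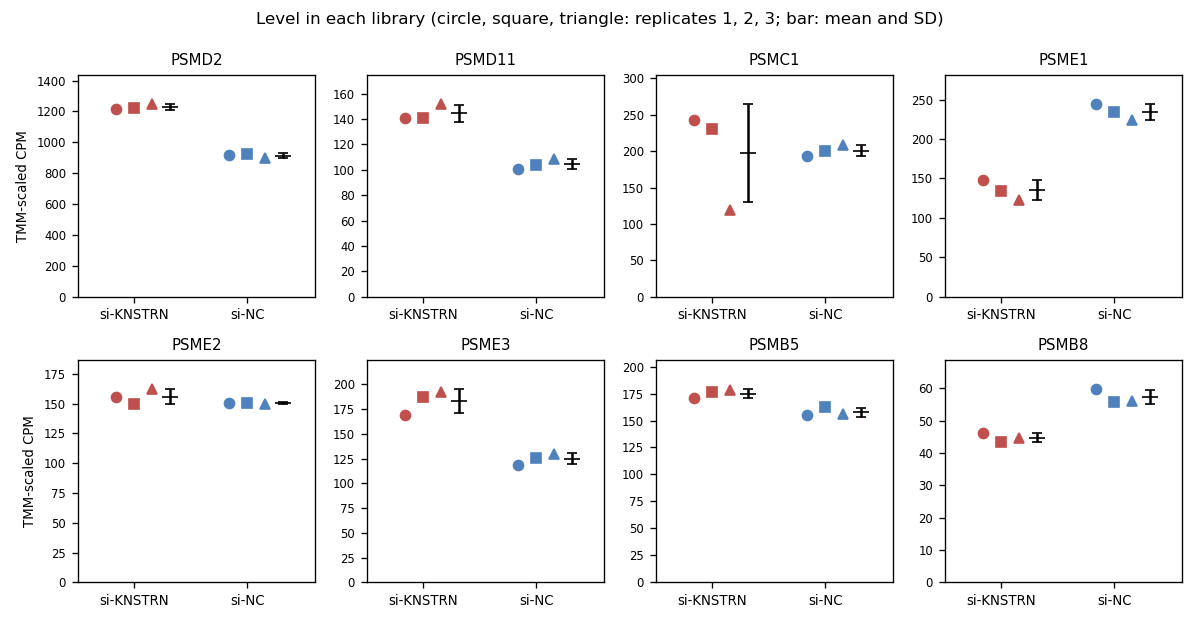
TMM-scaled CPM (y axis, from 0) of 8 proteasome genes in each si-KNSTRN library (left) and si-NC library (right), with the mean and SD of 3 libraries. PSMC1 in si-KNSTRN library 3 lies at 119.8 CPM, below all other libraries, whereas the libraries of each group lie close together in PSMD2. For PSME1 the groups lie apart, with 122 to 149 CPM in si-KNSTRN libraries and 224 to 245 CPM in si-NC libraries.

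Assembly factors of the 19S particle went different ways. PSMD9, PSMD5 and PSMD10 are chaperones that hold ATPase subunits until the base is complete and are not part of the finished proteasome. PSMD9 had 84.5, 87.6 and 86.6 CPM in si-KNSTRN libraries 1 to 3, against 61.5, 59.7 and 57.4 CPM in si-NC libraries 1 to 3 (log2 fold change 0.53, SE 0.05, adjusted p = 6.0e-08). PSMD5 had 44.6, 44.6 and 40.9 CPM with si-KNSTRN, against 48.5, 51.8 and 53.9 CPM with si-NC (log2 fold change -0.24, SE 0.06, adjusted p = 0.002). PSMD9 thus rose and PSMD5 fell, each without overlap. PSMD10, known as the oncoprotein gankyrin, had 82.4, 81.6 and 81.9 CPM with si-KNSTRN, against 79.7, 78.6 and 82.7 CPM with si-NC and did not pass the test (0.03, adjusted p = 0.59). Of the PSMD9 transcript windows 35.8% occur in other annotated genes, and PSMD10 overlaps ATG4A.

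Assembly factors of the 20S core, which pair up to guide the alpha ring, were likewise divided, with 2 of 4 higher and 1 lower. PSMG1 had 54.96, 54.97 and 52.9 CPM with si-KNSTRN, against 45.96, 44.8 and 50.7 CPM with si-NC (log2 fold change 0.20, SE 0.06, adjusted p = 0.0056). PSMG3 had 25.5, 26.3 and 25.6 CPM with si-KNSTRN, against 22.9, 21.6 and 19.8 CPM with si-NC (log2 fold change 0.27, SE 0.07, adjusted p = 0.0033). These belong to different pairs, and both rose without overlap. PSMG4, the partner of PSMG3, had 11.98, 10.2 and 12.3 CPM with si-KNSTRN, against 14.3, 15.1 and 13.96 CPM with si-NC (log2 fold change -0.33, SE 0.09, adjusted p = 0.0052). PSMG2, the partner of PSMG1, had 60.8, 59.4 and 57.7 CPM with si-KNSTRN, against 63.9, 58.5 and 63.5 CPM with si-NC and did not pass the test (adjusted p = 0.28); it overlaps SPIRE1 and CEP76.

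Activators showed the widest range of the classes. PSME1 and PSME2 encode the alpha and beta subunits of PA28, a ring induced by interferon gamma that opens the gate of the core without ubiquitin. PSME1 (chromosome 14, 24136194 to 24138962) had 149, 135 and 122 CPM in si-KNSTRN libraries 1 to 3, against 245, 234 and 224 CPM in si-NC libraries 1 to 3 (log2 fold change -0.79, SE 0.06, adjusted p = 1.1e-08). PSME2 (chromosome 14, 24143365 to 24146610) had 155, 149 and 162 CPM with si-KNSTRN, against 151, 151 and 149.6 CPM with si-NC (log2 fold change 0.05, SE 0.05, adjusted p = 0.36). The PSME1 groups were far apart, whereas those of PSME2, which lies 4402 bases away, overlapped and did not pass the test. The ratio of PSME1 to PSME2 per kb of transcript was 1.33, 1.26 and 1.06 in si-KNSTRN libraries 1 to 3, against 2.27, 2.17 and 2.09 in si-NC libraries 1 to 3 (exact permutation p = 0.1, the smallest possible). Of the windows of the PSME2 transcript 10.8% occur in other genes, mainly its pseudogenes.

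The nuclear activator genes PSME3 and PSME4 rose, and so did the regulator gene PSMF1. PSME3 encodes PA28 gamma, a nuclear ring that acts on proteins such as p21 without ubiquitin, and it had 169, 187 and 192 CPM in si-KNSTRN libraries 1 to 3, against 119, 126 and 129.7 CPM in si-NC libraries 1 to 3 (log2 fold change 0.55, SE 0.05, adjusted p = 1.8e-07). PSME4, the gene of PA200, an activator linked to histone breakdown, had 119.99, 115 and 121 CPM with si-KNSTRN, against 81.97, 83.2 and 86.3 CPM with si-NC (log2 fold change 0.50, SE 0.05, adjusted p = 9.9e-08). PSMF1, the gene of PI31, which binds the core and carries proteasomes along axons in fly and mouse, had 131, 137 and 147 CPM with si-KNSTRN, against 112, 112 and 104 CPM with si-NC (log2 fold change 0.33, SE 0.05, adjusted p = 3.2e-05). None of these 3 genes overlapped between groups, and they included the largest rise of any proteasome gene, that of PSME3.

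Sites in 3' UTRs were counted because the 6 bases TGAGTA had been found, in these same data, more often among genes lower with si-KNSTRN. Among genes tested whose annotated 3' UTR spanned 50 bases or more, 35.5% of the 3765 that fell held the word, against 19.3% of the 3762 that rose and 27.0% of the 4422 that did not pass the test. A longer 3' UTR has more room for any word, and lengths were not compared between these groups. Of the 46 proteasome genes tested, PSME3 (3' UTR of 0 bases in its chosen transcript) and PSME2 (44 bases) were left out of this count. Among the other 44 the word TGAGTA was present in 6: 2 of 6 that fell, 2 of 23 that rose and 2 of 15 that did not pass the test. The 30 bases around each site are shown, with the word in capitals, for 5 of these genes (GENCODE release 29).
PSME1 (chromosome 14, + strand, 3' UTR base 24 of 151): cccattctgtgaTGAGTAcagcagagacct
PSMD5 (chromosome 9, - strand, 3' UTR base 751 of 1853): ttctttgaaaaaTGAGTAgtatggaatatt
PSMC6 (chromosome 14, + strand, 3' UTR base 118 of 970): tgaataaaaataTGAGTAacatcataaaaa
PSMC6 (chromosome 14, + strand, 3' UTR base 397 of 970): tcttgtcttttcTGAGTAtatttactgtgg
PSMA5 (chromosome 1, - strand, 3' UTR base 1077 of 2982): atcaccagctctTGAGTAatagggaaatct
PSMF1 (chromosome 20, + strand, 3' UTR base 2145 of 3298): tccttccagtcaTGAGTAatcatcaaggag
PSMF1 (chromosome 20, + strand, 3' UTR base 2684 of 3298): aaaaggctattaTGAGTAatgcagccaaga
PSME1, with the largest fall, holds the bare word near the start of a short 3' UTR, and PSMF1 and PSMA5 rose although they hold it followed by A. The immunoproteasome genes and PSMG4 hold none, but their 3' UTRs are short. They span 242 bases in PSMB8, 53 in PSMB9, 58 in PSMB10 and 337 in PSMG4, which leaves little room for any word. Without the 6 genes that hold it, 22 proteasome genes rose and 4 fell, and the part of the word in these changes was not tested.

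Promoters of 42 of the 48 genes were found in the RefSeq table of GRCh38.p14, as 250 bases before to 50 after a transcript start. For some genes, among them PSMG4, PSMA1 and PSMA6, the window lies inside the gene span and not at its outer end. The PSMG4 window, for example, runs from 3258697 to 3258996 in a gene that spans 3254404 to 3268049. The words searched on both strands were TGACNNNGC (the core of the antioxidant response element bound by NFE2L1), GAAA followed by any 2 bases and another GAAA (a form of the interferon-stimulated response element, ISRE), TTCNNNGAA (the GAS element) and CCAAT. TGACNNNGC was present in 13 of 42 proteasome promoters (31.0%), against 13.6% of 27305 promoters of all genes. Of these 13 genes, 7 rose, 3 fell and 3 did not pass the test. The ISRE-type word was present in 6 (14.3%, against 3.6% of all): PSMB10, PSME1 and PSMG4, which fell, and PSME2, PSMA4 and PSMB4, which did not pass the test. CCAAT was found in 19 (45.2%, against 35.7%) and TTCNNNGAA in 5 (11.9%, against 7.9%). For CCAAT these included 12 of 21 genes that rose, 1 of 6 that fell and 5 of 13 that did not pass the test. For TTCNNNGAA they included 3 of 21, 0 of 6 and 1 of 13 in the same order. Whether any word goes with the changes was not tested. The promoters of both PA28 genes, of PSMB10 and of PSMD9 are shown, because the first pair share both words but not the fall, PSMB10 fell with PSME1, and PSMD9 rose most among 19S genes and holds TGACNNNGC at 2 positions. Capitals mark matches to TGACNNNGC and to the ISRE-type word on either strand, and no marked matches overlap.
PSME1 (chr14:24135944-24136243, + strand): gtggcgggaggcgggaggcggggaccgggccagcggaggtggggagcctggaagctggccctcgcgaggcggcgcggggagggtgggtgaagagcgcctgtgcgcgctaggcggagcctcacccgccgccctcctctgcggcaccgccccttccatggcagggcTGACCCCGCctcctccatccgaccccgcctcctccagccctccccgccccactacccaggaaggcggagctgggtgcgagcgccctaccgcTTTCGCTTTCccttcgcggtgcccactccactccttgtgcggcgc
PSME2 (chr14:24146561-24146860, - strand): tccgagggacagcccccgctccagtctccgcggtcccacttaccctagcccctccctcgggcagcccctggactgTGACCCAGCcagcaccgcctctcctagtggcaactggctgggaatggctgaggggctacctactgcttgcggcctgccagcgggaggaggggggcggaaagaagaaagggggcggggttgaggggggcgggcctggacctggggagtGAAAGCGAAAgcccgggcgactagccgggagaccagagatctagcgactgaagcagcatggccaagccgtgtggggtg
PSMB10 (chr16:67936801-67937100, - strand): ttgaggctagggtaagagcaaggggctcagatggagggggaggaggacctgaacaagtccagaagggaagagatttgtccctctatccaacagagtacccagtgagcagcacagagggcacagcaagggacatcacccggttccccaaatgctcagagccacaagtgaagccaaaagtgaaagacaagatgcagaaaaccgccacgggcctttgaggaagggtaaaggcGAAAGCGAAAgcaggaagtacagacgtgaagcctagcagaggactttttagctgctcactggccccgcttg
PSMD9 (chr12:121888540-121888839, + strand): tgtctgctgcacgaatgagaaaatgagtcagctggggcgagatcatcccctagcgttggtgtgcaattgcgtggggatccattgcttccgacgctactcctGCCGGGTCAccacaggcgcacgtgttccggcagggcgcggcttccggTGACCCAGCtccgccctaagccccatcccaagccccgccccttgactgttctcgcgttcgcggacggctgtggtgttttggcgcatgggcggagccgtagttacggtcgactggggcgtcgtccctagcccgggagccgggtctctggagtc
PSME1 and PSME2 each hold 1 match to TGACNNNGC and 1 to the ISRE-type word, and of the pair PSME1 fell. PSMB8 holds none of the 4 words in this window and PSMB9 holds TGACNNNGC and CCAAT, although both fell with PSMB10. A match says only that the letters are there.

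Of 12 partners of the proteasome without a PSM symbol, 6 rose, 1 fell (8.33%) and 5 did not pass the test, where 31.2% of all genes tested rose and 31.3% fell. ADRM1, a ubiquitin receptor of the 19S particle, averaged 257 ± 19.6 CPM in si-KNSTRN cells and 186 ± 4.95 CPM in si-NC cells (SD, n = 3 each; log2 fold change 0.46, SE 0.05, adjusted p = 1.3e-06). USP14, a deubiquitinase that docks on PSMD2, rose by 0.37 on the log2 scale (SE 0.05), and UBE3C, a ligase that extends ubiquitin chains on the proteasome, by 0.61 (SE 0.05). POMP, the maturation factor of the core, rose by 0.35 on that scale and UCHL5, the deubiquitinase held by ADRM1, by 0.22. PAAF1, a chaperone of the 19S ATPases like PSMD5, fell to 16.6 ± 1.53 CPM in si-KNSTRN cells, against 30.1 ± 0.479 CPM in si-NC cells (SD, n = 3 each; log2 fold change -0.86, SE 0.07, adjusted p = 4.6e-08). The 3' UTR of PAAF1 holds TGAGTA at 2 positions, as does that of ZFAND5, which rose, and the 3' UTR of UCHL5 holds it once. PAAF1 overlaps COA4, USP14 overlaps THOC1 and UCHL5 overlaps RO60.

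Of 13 genes that control the transcription of proteasome genes, 7 rose (53.8%, against 31.2% of all genes tested) and 3 fell (23.1%, against 31.3%). NFE2L1 averaged 178 ± 6.07 CPM in si-KNSTRN cells and 292 ± 2.87 CPM in si-NC cells (SD, n = 3 each) and fell by 0.71 on the log2 scale (SE 0.04, adjusted p = 1.1e-09). Its 3' UTR holds the same word at base 1238 of 1839, in gaatgcttgtgtTGAGTAaaaaggagatgc. Over the 4 lists of partners and regulators the word was present in 3 of 22 genes that rose (UCHL5, ZFAND5 and UBQLN4), 3 of 13 that fell (PAAF1, NFE2L1 and UBA6) and 7 of 17 that did not pass the test, counting genes whose annotated 3' UTR spans 50 bases or more. NFE2L3, a related factor, fell by 0.67 (SE 0.06), and NGLY1, whose enzyme removes sugars from NFE2L1 during its activation, by 0.24. NFE2L1 transcripts were lower in the same libraries in which the 19S transcripts were higher; its protein was not measured. MAFF, a small partner of NFE2L factors, rose by 0.69 on the log2 scale (SE 0.06), MAFK by 0.37 and MAFG by 0.27. SYVN1, a ligase that degrades NFE2L1 at the endoplasmic reticulum, rose by 0.35, VCP, which extracts it from the membrane, by 0.21, and the CCAAT-binding genes NFYA and NFYC by 0.38 and 0.20. MAFF, MAFK, SYVN1, NFYA and NFYC each overlap another gene.

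Of 14 ubiquitin, E1 and shuttle factor genes, 3 rose (21.4%, against 31.2% of all genes tested) and 4 fell (28.6%, against 31.3%), shares near those of all genes. The polyubiquitin gene UBB had a log2 fold change of 0.03 and did not pass the test (adjusted p = 0.63). ZFAND2A, an arsenite-inducible proteasome-binding protein gene, rose by 0.54 (SE 0.08) and the shuttle gene UBQLN4 by 0.36. NUB1, which delivers NEDD8 conjugates to the proteasome, fell by 0.34 (SE 0.05) and the E1 gene UBA6 by 0.28.

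Of 14 genes of interferon gamma signalling and peptide loading, 6 rose (42.9%, against 31.2% of all genes tested) and 5 fell (35.7%, against 31.3%), and these shares are not read as a result about the list. TAP1, a subunit of the peptide transporter that lies between PSMB8 and PSMB9, 529 bases from one and 487 bases from the other, averaged 57.3 ± 1.07 CPM in si-KNSTRN cells and 46.3 ± 3.40 CPM in si-NC cells (SD, n = 3 each; log2 fold change 0.31, SE 0.06, adjusted p = 2.3e-04). It rose while both of its neighbours fell. IRF1, a transcription factor of interferon gamma signalling, fell by 0.64 (SE 0.07, adjusted p = 4.3e-07). The class I transactivator NLRC5 rose by 0.47 on the log2 scale (SE 0.07). TAPBP, the peptide-loading chaperone tapasin, fell by 0.52 (SE 0.05); it overlaps RGL2.

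**Figure D4:**
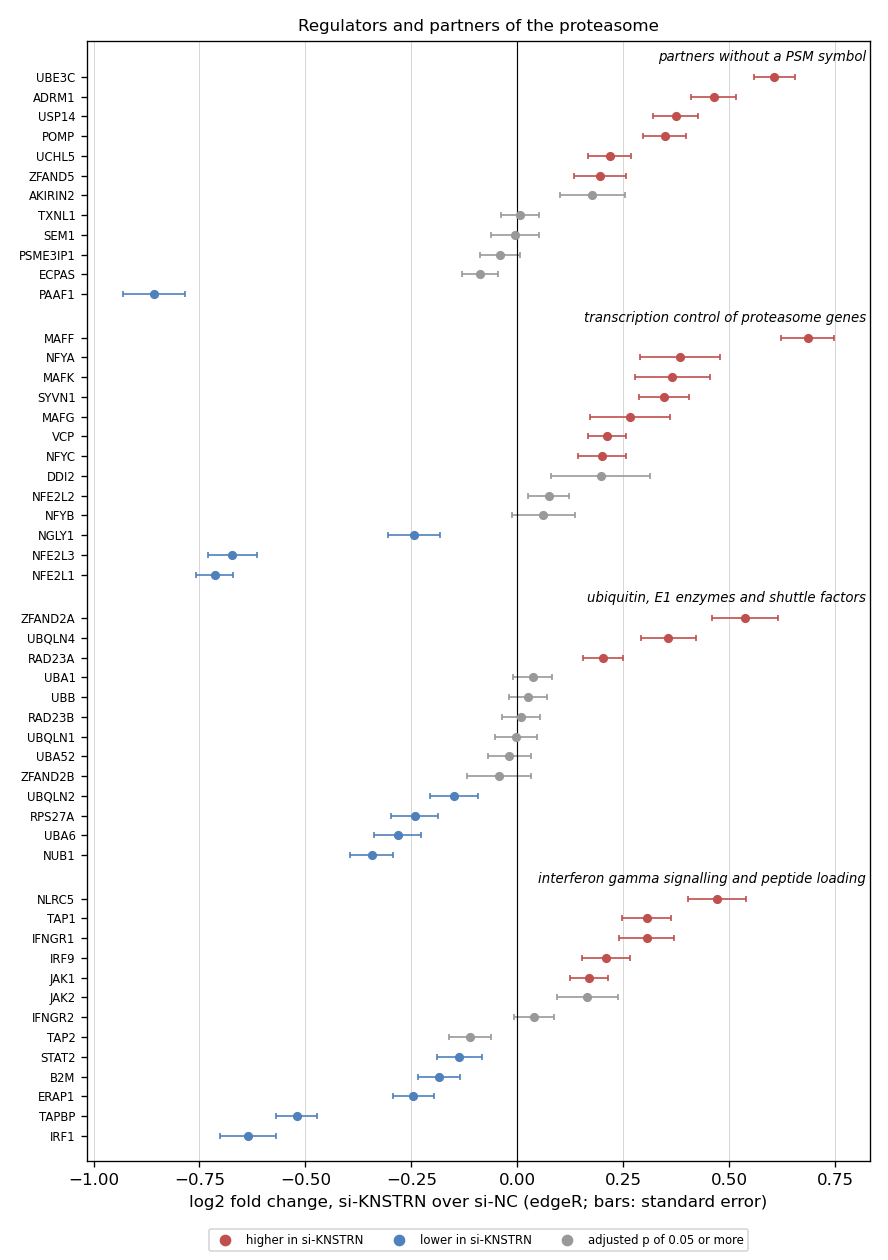
Log2 fold change of si-KNSTRN over si-NC cells (x axis) for genes of the 4 lists of proteasome partners and regulators (y axis), with standard errors from edgeR (3 libraries per group). NFE2L1, NFE2L3, PAAF1, IRF1 and TAPBP lie at the far left, and MAFF and UBE3C at the far right.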

How the data were processed

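Total RNA of T24 cells, 1.3 µg per library, was made into mRNA libraries with a SMARTER kit, per the labels' protocols. The deposited values are the authors' raw read counts per gene and library. The submitters' processing notes name HISAT2 2.0.1 and featureCounts with the build GRCh38, and also fastp 0.20.0 and FastQC 0.11.5. The annotation, strand setting and handling of multiply aligned reads were not given in the sources used here, and reads of overlapping genes may therefore be mixed. No pair of replicates agreed within sampling noise (chi-square per degree of freedom 2.16 to 10.3).

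The whole table was fitted in R 4.3.3 with edgeR 4.0.16: its low-count filter (minimum count 10) kept 12650 of 20442 genes, counts were scaled by TMM, and the two-sided quasi-likelihood test was followed by Benjamini-Hochberg adjustment. The script was tested on simulated data for the comparison of si-KNSTRN with si-NC: over 12560 genes it recovered 56% of those given a log2 change of 0.32, 84% of those given a 1.5-fold change and 92% of those given a 2-fold change, with 8 false calls. The members, the gene lists and the word TGAGTA were chosen with earlier results of these data known. All 48 members are accounted for; values in every library are given for KNSTRN, PSMB5 to PSMB10, the 4 members of each class with the smallest p and members singled out after their values were seen (PSMC1 and PSME2); in each list of other genes the 4 with the smallest p were named by rule and further ones were chosen after their values were seen. Transcripts were from GENCODE release 29 (1 principal transcript per gene), and coordinates and promoters from RefSeq for GRCh38.p14. Alternatives were median-of-ratios, library-size and upper-quartile scaling, DESeq2 1.42.0, limma-voom (limma 3.58.1), 2 other filters, 2 stricter thresholds, a replicate block, each library left out, and members with TGAGTA or a near-identical copy left out. A few items of these lists are not reported here by name.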

Additional observations from a re-analysis of the deposited data

How the results depend on the processing

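Counts of proteasome genes that rose were 22 to 30, against 24 in the reported fit, under the other scalings, tests and filters, and 22 to 25 with each library left out. Among the scalings, library size alone gave 30 (4339 of all genes tested rose) and upper-quartile factors gave 22 (3489 of all genes tested rose). Counts that fell were 6 to 8, against 6, and 6 to 7 with each library left out. A minimum absolute log2 fold change of 0.5 left 3 higher and 1 lower; the construction of that threshold sets this. No member had at least 90% of its transcript windows in another gene, so leaving such members out changed nothing. PSMC1 was the sole proteasome gene that was called in the other direction under a setting: the PSMC1 log2 fold change was 0.24 (adjusted p = 1.7e-04) without si-KNSTRN library 3 and -0.20 without si-KNSTRN library 1, against -0.02 with all libraries. Calls of 10 other genes changed under some setting: PSMA3 and PSMD8 were lost, and PSMA1, PSMA2, PSMA4, PSMA6, PSMB2, PSMB3, PSMC5 and PSMC6 were gained, the cause of which was not tested. Same-numbered libraries did not deviate together (correlations of -0.06, 0.05 and -0.03 across 12650 genes). Such values cannot show whether these libraries were prepared as pairs, because pairs with a weak shared effect would give them too. With the replicate block 24 proteasome genes rose and 6 fell. The KNSTRN log2 fold change was -1.67 to -1.57 over the settings tried. In simulated counts 56% of genes given a log2 change of 0.32 and 84% of those given a 1.5-fold change were recovered. The simulation changed only 50 genes at each size, drawn from all levels of expression, whereas 62.5% of genes passed the test in the data. These shares therefore do not give the power for proteasome genes, most of which changed by about the smaller size or less. A gene that did not pass the test may still differ.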
